A study of Mus musculus with 43 samples.

Results

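Resting gamma-delta T cells were compared with resting CD8 T cells from mouse spleen, 3 arrays of each, which are 6 of the 43 arrays in the series. They were chosen by sample title as the baseline arrays of these 2 types. All 6 samples came from male C57BL/6 mice of 6 weeks, with no treatment and no altered allele labelled. Gamma-delta T cell arrays 1 and 2 were sorted as positive for gamma-delta T cells and negative for TCRB, array 3 as TCRgd+, and the CD8 T cells as CD8+. In both cell types arrays 1 and 2 carry one wording for the spleen preparation (a stain) and array 3 another (a digestion), and CD8 arrays 1 and 2 have blood as their source label against a spleen preparation and title. A further 2 gamma-delta (TCRgd+) and 2 CD8 T cell arrays came from mice 2 h after 10000 U of interferon alpha under the skin, all with the digestion wording. They were used as separate arrays for the same comparison. These arrays, and all others of the 43, also came from mice of 6 weeks. The labels do not say which arrays came from separate animals, so a p-value here measures the spread between arrays, which may be technical.

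T cells read antigen through a receptor made either of an alpha and a beta chain or of a gamma and a delta chain, each built from rearranged V, D and J segments and held at the surface by the CD3 proteins. Conventional CD8 T cells recognise peptides on MHC class I with the help of the CD8 coreceptor and leave the thymus naive, whereas many gamma-delta T cells leave it already committed to an effector programme, producing either interferon gamma or interleukin 17 (IL-17). The IL-17 producers are known for the transcription factors SOX13, MAF and PLZF (gene Zbtb16), the kinase BLK, scavenger receptors of the SCART family and the receptor for IL-23; those with NK-like features carry killer cell lectin-like receptors.

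Expression was measured on an Affymetrix Mouse Gene 1.0 ST array, in which many short probes tile the exons of a gene. Levels are log2 of the deposited intensity of the gene's brightest probe set, and a difference of 1 is a 2-fold difference. Levels of different genes are not comparable, since each probe set has its own brightness. The median intensity over 24922 probe sets was 118.5 to 120.2 on the gamma-delta arrays and 106.0 to 110.8 on the CD8 arrays. The gamma-delta arrays differed more among themselves: the median gene had an SD of 0.244 over the 3 gamma-delta arrays and 0.122 over the 3 CD8 arrays, and 2010 of 19752 genes ranged over at least 1 log2 unit among the gamma-delta arrays against 134 among the CD8 arrays. Of 19752 genes tested, 267 were higher in gamma-delta T cells (1.35% of all genes) and 461 lower (2.33%), at an adjusted p under 0.05 and a difference of at least 1 (limma, Benjamini-Hochberg adjustment over all genes). These limits define "higher", "lower" and "passed" below. The groups did not overlap for 252 of the 267 and 457 of the 461; over all genes, every gamma-delta array was above every CD8 array in 21.8% and below in 19.1%.

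The count of lower genes rested on which gamma-delta arrays entered. Without gamma-delta array 1 it was 188, and without array 2 it was 981. The count of higher genes was 232 and 322. Gamma-delta array 1 correlated with the rest of its group at 0.9576, the lowest such value in the series. Gamma-delta arrays 2 and 3 were at 0.977 and 0.9755, and the CD8 arrays at 0.9933 to 0.9943. The array most like gamma-delta array 2 was a CD8 array (r = 0.9768). The share of calls in the higher direction was 36.7%, but 51.5% after quantile normalization and 17.1% after centring each array on its median. The median difference over all genes was 0.10 as deposited, 0.02 after quantile normalization and -0.06 after median centring. All 3 gamma-delta arrays had median levels of B cell and NK cell markers above those of the CD8 arrays, to different degrees (values below). Gene groups are therefore also given with gamma-delta array 2 alone, which had the lowest B cell marker levels, and with array 3 alone, which had the lowest NK cell marker levels, against the 3 CD8 arrays; these choices were made after seeing the data. With array 2 alone, 149 genes were higher (0.754%) and 82 lower (0.415%); with array 3 alone, 302 were higher (1.53%) and 355 lower (1.80%). Of the genes that passed with all arrays, 106 of the 267 and 53 of the 461 passed in both of these settings, each of which assumes that the lone array varies like the other groups.

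**Figure D1:**
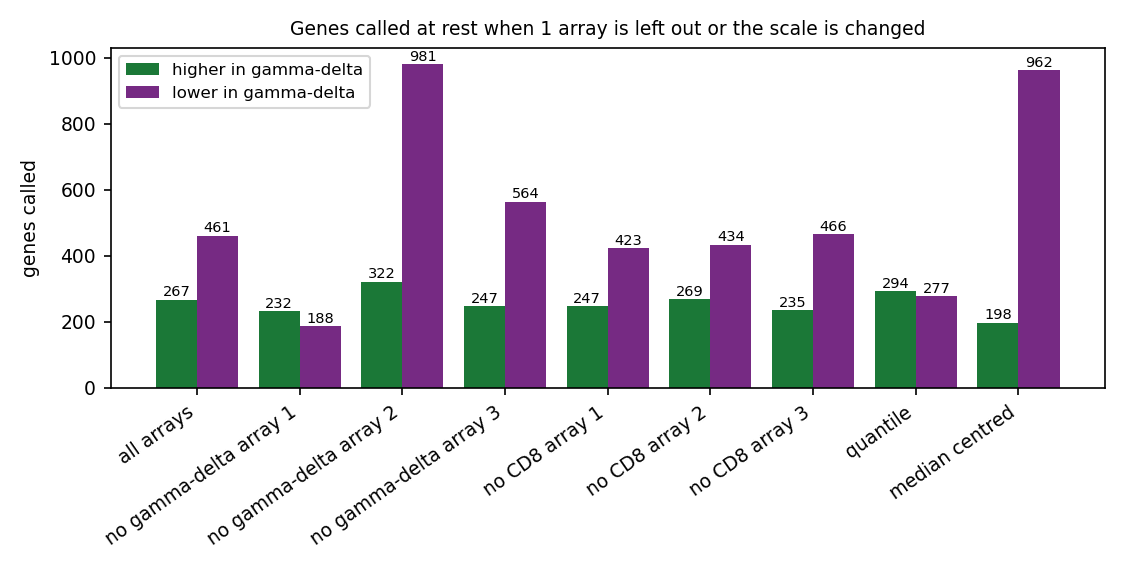
Number of genes called higher (green bars) and lower (purple bars) in gamma-delta than in CD8 T cells at rest with all arrays, with 1 array left out and after 2 other scalings; the vertical axis counts genes. The purple bars run from 188 without gamma-delta array 1 to 981 without gamma-delta array 2, and the green bars from 198 after median centring to 322 without gamma-delta array 2.

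The receptor loci separated the cell types as their labels say. Trdv2-2, a variable segment of the delta chain, was at 11.13, 11.62 and 11.21 on the 3 gamma-delta arrays and at 5.70, 5.54 and 5.06 on the 3 CD8 arrays, a difference of 5.89 (SE 0.188, limma adjusted p = 8.89e-22). All gamma-delta arrays lay more than 5 log2 units above all CD8 arrays, and the NK, NKT, CD4 and regulatory T cell arrays had means between 5.32 and 6.66. Trgv1, a variable segment of the gamma chain, was at 11.99, 12.71 and 12.22 against 6.24, 7.54 and 5.45, a difference of 5.90 (SE 0.332, adjusted p = 9.55e-15). The gamma chain segment was brighter in NK cells (mean 9.08) and NKT cells (mean 10.70) than in CD8 T cells, and every gamma-delta array lay at least 0.68 above every array of the NK, NKT, CD4, CD8 and regulatory T cells.

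Of 6 variable segments of the alpha and beta chains measured, 4 were lower in gamma-delta T cells, 1 was higher and 1 did not pass. Trav12-2, an alpha segment, was at 3.63, 2.98 and 3.50 against 7.03, 6.75 and 6.00 (difference -3.22, SE 0.313, adjusted p = 6.16e-09), and Trbv1, a beta segment, at 8.24, 8.84 and 8.19 against 10.63, 10.74 and 10.46 (-2.19, SE 0.217, adjusted p = 8.89e-09). The groups did not overlap for either, and Trav7d-4 (-2.50) and Trav19 (-1.97) moved the same way. Trav14-1 went in the opposite direction: it was at 9.96, 10.33 and 9.73 in gamma-delta against 8.55, 8.42 and 7.98 in CD8 T cells (1.69, SE 0.400, adjusted p = 0.00455). Segments of the TRAV14 group share close copies and can also be used by delta chains, as background, and probes of near-identical copies cannot be told apart on the array; the call was lost with array 2 alone (adjusted p = 0.0829) and with array 3 alone (adjusted p = 0.149).

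Cd8a and Cd8b1, the chains of the CD8 coreceptor and the markers that define the CD8 T cells, were both lower in gamma-delta T cells. Cd8a was at 7.13, 6.74 and 7.11 against 11.84, 11.89 and 11.76, a difference of -4.83 (SE 0.205, adjusted p = 3.34e-18). Its gamma-delta mean of 7.0 was near that of NKT cells (6.94) and above those of NK (6.17), CD4 (6.21) and regulatory T cells (6.24). Cd8b1 was at 9.14, 9.48 and 9.53 against 12.22, 12.02 and 12.14, a difference of -2.74 (SE 0.176, adjusted p = 2.09e-13). Its gamma-delta mean was 3.42 above that of NK cells, where Cd8b1 was at 5.96, and CD4 and regulatory T cells were at 8.46 and 8.32. The sort had selected on the CD8 protein, so both differences check the labels. Of 15 genes of the CD8 coreceptor and lineage, 4 were lower (2 with array 2 alone, 4 with array 3 alone and 2 without the CD8 arrays labelled blood) and 2 higher, among them Zbtb7b, which encodes ThPOK, the factor that opposes the CD8 fate, at 7.43, 7.74 and 7.78 against 6.67, 6.08 and 6.33 (1.29, SE 0.176, adjusted p = 3.71e-06).

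**Figure D2:**
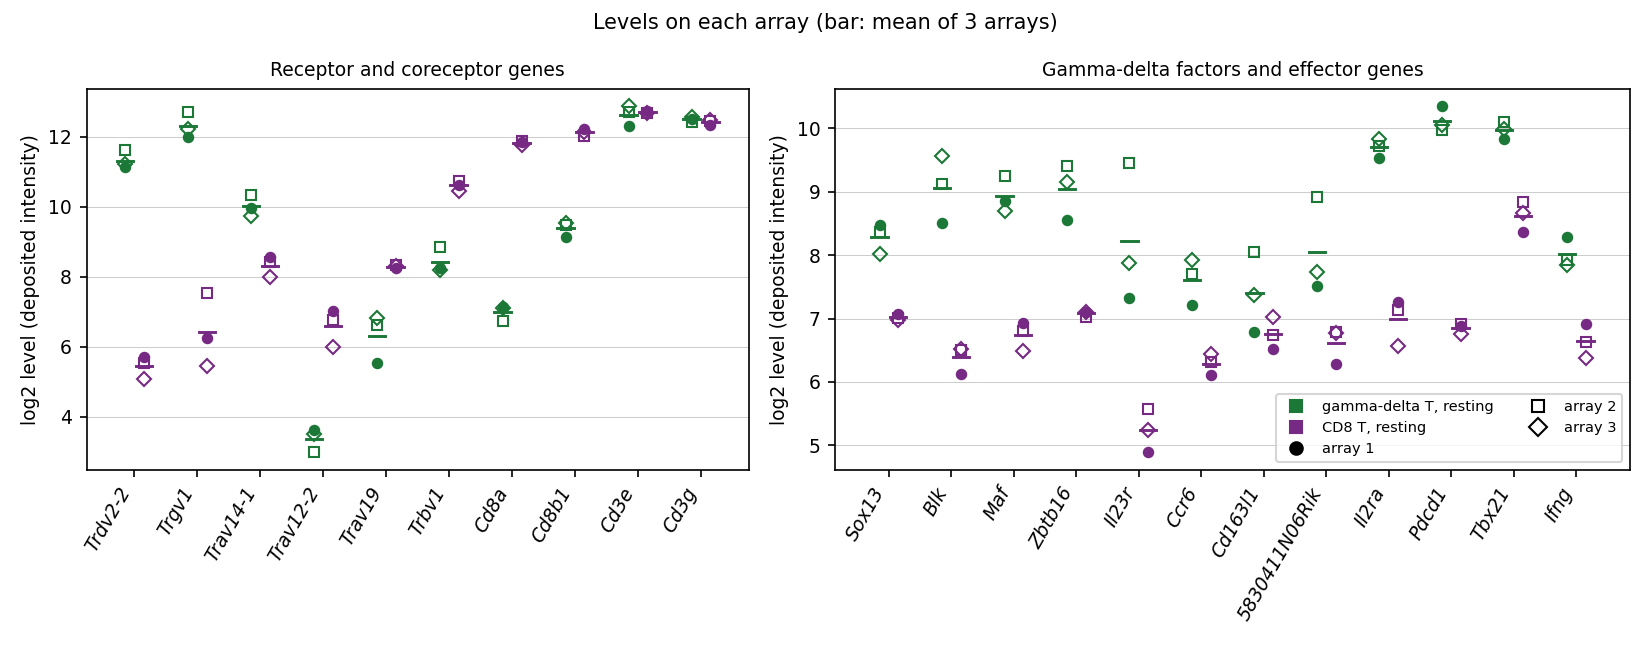
Log2 level (vertical axis) of receptor and coreceptor genes (left) and of gamma-delta factors and effector genes (right) on the 3 gamma-delta (green) and 3 CD8 arrays (purple) at rest, 1 symbol per array with its shape giving the array number and a bar at the mean. The Cd8a points of the gamma-delta arrays sit between 6.74 and 7.13 and those of the CD8 arrays between 11.76 and 11.89, while those of Cd163l1 overlap.

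The signalling machinery that both receptors share held a few calls. Of 24 genes of the CD3 complex and proximal signalling, 3 were higher and 1 was lower (1.35% and 2.33% over all genes). Their median difference was -0.22, and without gamma-delta array 2, 5 were lower. On the interferon arrays 2 were higher and 3 lower. In that list 2 were higher with array 2 alone, and 3 were higher and 3 lower with array 3 alone. Cd3e, a chain of the CD3 complex, was at 12.30, 12.71 and 12.87 in gamma-delta and at 12.74, 12.69 and 12.67 in CD8 T cells, a difference of -0.07, and the groups overlapped. The kinase Blk was at 8.51, 9.13 and 9.56 against 6.13, 6.51 and 6.52 (2.68, SE 0.211, adjusted p = 5.16e-11), with NK cells at 6.54 and NKT cells at 6.91. Blk is also a B cell kinase, and the part of B cells in its level was not tested. With array 2 alone the difference was 2.74 (adjusted p = 1.31e-08) and with array 3 alone 3.17 (adjusted p = 7.76e-10).

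The other higher genes of this group were Fcer1g and Syk. Fcer1g encodes the Fc receptor gamma chain, a signalling adaptor that can replace CD3 zeta, and was at 10.28, 9.49 and 9.09 against 7.39, 8.33 and 7.24 (1.97, SE 0.283, adjusted p = 9.85e-06). Its level followed the NK cell markers across the gamma-delta arrays. Syk, the kinase that pairs with such adaptors in B and NK cells, was at 8.37, 6.74 and 9.26 against 6.11, 6.5 and 6.01 (1.92, SE 0.354, adjusted p = 0.000363). The level of Syk followed the B cell markers across the gamma-delta arrays, and with array 2 alone the difference was 0.54 (adjusted p = 0.592). Themis, a scaffold needed for alpha-beta thymocyte selection, was the lower gene (-1.23, adjusted p = 0.00237; -0.70 with array 2 alone, adjusted p = 0.518).

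Of 26 transcription factors and signalling proteins known from gamma-delta T cells, 11 were higher and none was lower, with a median difference of 0.84 against 0.10 over all genes; 11 passed with array 2 alone, 9 with array 3 alone and 7 when array 3 of each cell type was compared. Sox13, a gamma-delta lineage factor, was at 8.47, 8.37 and 8.02 against 7.07, 7.01 and 6.98 (1.27, SE 0.148, adjusted p = 2.48e-07); with array 3 alone its difference of 1.0 (adjusted p = 0.00198) was just under the fold limit. Maf was at 8.85, 9.25 and 8.70 against 6.93, 6.80 and 6.49 (2.19, SE 0.232, adjusted p = 3.93e-08). Zbtb16, which encodes PLZF, the factor of innate-like T cells, was at 8.56, 9.41 and 9.15 against 7.10, 7.03 and 7.11 (1.96, SE 0.211, adjusted p = 5.12e-08). For all 3 factors the groups stood clear of each other. In NK and NKT cells Sox13 was at 7.08 and 7.48, below its gamma-delta levels, whereas Maf was at 8.79 and 10.13 and Zbtb16 at 8.77 and 10.82.

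Further members of the group were the Ikaros family factor Ikzf2 (difference 1.82), the aryl hydrocarbon receptor Ahr (1.71), the type 1 factor Tbx21 (1.35), the E protein inhibitor Id2 (1.23), the Notch target Hes1 (1.15) and Bhlhe40 (1.02). Tbx21 was at 9.84, 10.11 and 9.99 against 8.36, 8.84 and 8.67, so that the factor of interferon gamma production and factors of IL-17 production were higher in the same arrays. Hes1 and Bhlhe40 did not pass with array 2 alone (adjusted p = 0.362 and 0.459).

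Of 22 measured genes of the IL-17 gamma-delta programme, 14 were higher and none was lower, with a median difference of 1.23; 5 of the 14 (Blk, Maf, Sox13, Zbtb16 and 5830411N06Rik) are also in the group above. With array 2 alone 14 members passed and with array 3 alone 12; after median centring 11 passed and after quantile normalization 12. Il23r, the receptor subunit through which IL-23 sustains these cells, was at 7.32, 9.46 and 7.87 against 4.89, 5.57 and 5.24 (2.98, SE 0.300, adjusted p = 1.17e-08). All gamma-delta arrays were above all CD8 arrays, array 2 stood highest, and NK and NKT cells were at 5.07 and 5.74. The scavenger receptor gene 5830411N06Rik, a SCART family member, was at 7.51, 8.92 and 7.73 against 6.28, 6.78 and 6.77 (1.44, SE 0.211, adjusted p = 1.19e-05). Its neighbour and relative Cd163l1 was at 6.78, 8.05 and 7.37 against 6.52, 6.74 and 7.02; the groups overlapped and the difference of 0.64 (adjusted p = 0.0275) was under the fold limit. Of the 14 higher genes, 8 were highest on array 2, 4 on array 3 and 2 on array 1; Serpinb1a, for example, was at 7.87, 7.27 and 8.56, the order of the B cell markers.

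The membrane proteins Tmem176b (2.75) and Tmem176a (2.20), the protease inhibitor Serpinb1a (2.51), the actin-capping protein Capg (1.41), the potassium channel Kcnk1 (1.05) and the IL-17 receptor subunit Il17re (1.01) were also higher. Ccr6, the chemokine receptor used by IL-17 producers, was at 7.22, 7.70 and 7.92 against 6.11, 6.32 and 6.44 (1.32, SE 0.198, adjusted p = 1.85e-05). Ccr2, another homing receptor of these cells, passed with all arrays (1.20, adjusted p = 0.0334) but with neither array alone (adjusted p = 0.0759 and 0.341). The cytokine genes themselves did not pass in these unstimulated cells: the difference was 0.38 for Il17a (adjusted p = 0.112) and 0.03 for Il17f.

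**Figure D3:**
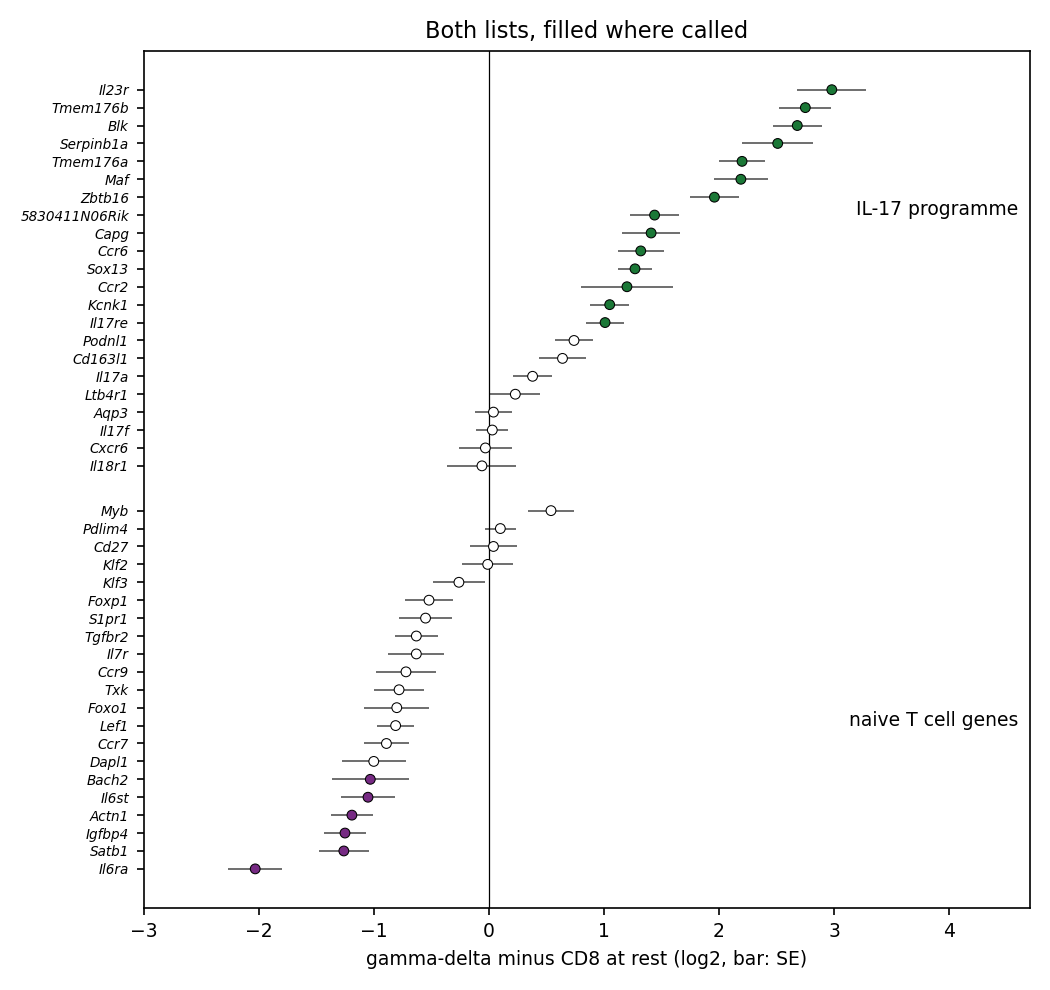
Gamma-delta minus CD8 difference at baseline (log2) for each measured gene of the IL-17 gamma-delta programme and of the naive T cell list, as a point with its standard error; filled points passed both limits. In the IL-17 programme 14 of 22 genes are filled, all to the right of 0, and in the naive list 6 of 21 are filled, all to the left of 0.

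Promoter windows of Il23r and of the neighbouring SCART genes are shown as examples of genes highest on gamma-delta array 2, chosen after their values were seen, and that of Cd8a because it was the gene furthest below its CD8 level. Each window runs from 250 bases before to 50 bases after the RefSeq start of the gene (GRCm38.p6), 5′ to 3′ on the gene's strand; capitals mark the letters AGGTCA or, on the other strand, TGACCT, the 6-letter core bound by ROR family receptors.
Il23r, chr6:67491806-67492105, minus strand: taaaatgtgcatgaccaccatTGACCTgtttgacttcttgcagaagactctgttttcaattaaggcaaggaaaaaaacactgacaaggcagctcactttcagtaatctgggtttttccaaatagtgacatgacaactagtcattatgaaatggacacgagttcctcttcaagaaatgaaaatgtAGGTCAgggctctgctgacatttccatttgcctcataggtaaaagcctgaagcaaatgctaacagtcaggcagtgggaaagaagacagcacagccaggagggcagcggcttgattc
5830411N06Rik, chr7:140247051-140247350, plus strand: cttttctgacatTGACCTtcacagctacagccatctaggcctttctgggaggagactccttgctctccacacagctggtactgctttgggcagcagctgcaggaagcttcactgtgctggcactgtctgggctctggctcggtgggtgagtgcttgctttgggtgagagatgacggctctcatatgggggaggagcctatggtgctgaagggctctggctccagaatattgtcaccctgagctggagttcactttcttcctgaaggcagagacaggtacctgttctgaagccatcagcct
Cd163l1, chr7:140218017-140218316, plus strand: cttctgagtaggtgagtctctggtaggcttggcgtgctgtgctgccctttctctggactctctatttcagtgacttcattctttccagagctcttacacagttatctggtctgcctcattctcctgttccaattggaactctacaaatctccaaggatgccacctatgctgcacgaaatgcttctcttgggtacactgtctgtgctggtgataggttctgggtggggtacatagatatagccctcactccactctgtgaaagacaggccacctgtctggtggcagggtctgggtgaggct
Cd8a, chr6:71373177-71373476, plus strand: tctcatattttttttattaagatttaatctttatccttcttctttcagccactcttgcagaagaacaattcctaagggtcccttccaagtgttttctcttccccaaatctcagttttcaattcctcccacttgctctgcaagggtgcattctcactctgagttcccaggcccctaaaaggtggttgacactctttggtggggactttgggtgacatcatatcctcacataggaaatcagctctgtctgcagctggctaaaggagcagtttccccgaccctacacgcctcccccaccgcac
The Il23r window held 2 such cores, the 5830411N06Rik window 1, and the other windows none. Of 27025 genes with a window of this length, 4335 (16.0%) held one on either strand; of the 22 measured IL-17 programme genes 17 had a window and 6 of those held one (35.3%). For another 6-letter core, TGTGGT or ACCACA, bound by RUNX factors, the counts were 4573 of 27025 (16.9%) and 5 of 17 (29.4%). A match of 6 letters is a description of the window and not a binding site.

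Receptors of the killer cell lectin family, the inhibitory and activating receptors of NK cells, held some of the largest differences. Of 21 measured genes for NK and killer lectin receptors, 13 were higher and none was lower (median difference 1.87), with 12 higher with array 2 alone and 11 with array 3 alone. Klri1, which forms a receptor with KLRE1, was at 10.09, 9.90 and 9.69 against 4.78, 5.64 and 4.80 (4.82, SE 0.308, adjusted p = 2.09e-13). Klrc1, which encodes the inhibitory receptor NKG2A, was at 10.57, 10.55 and 10.01 against 6.4, 6.37 and 5.69 (4.22, SE 0.234, adjusted p = 7.75e-15). Both were near even across the gamma-delta arrays and far above all CD8 arrays. The NK cell mean was 10.01 for Klri1, near the gamma-delta level, and 12.14 for Klrc1, above it.

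Of the 13 higher receptors, 11 had the order of the NK cell markers among the gamma-delta arrays, array 1 above 2 above 3; Klrc2 and Klrc3 were highest on array 2. The list and the NK cell markers share 7 genes. Klrb1c, which encodes NK1.1, was at 9.82, 8.94 and 8.31 against 5.93, 5.60 and 5.51 in CD8 T cells (3.34, SE 0.247, adjusted p = 8.80e-12). Klrb1a was at 8.24, 6.19 and 5.97 against 4.25, 4.38 and 4.13 (2.54, SE 0.311, adjusted p = 5.97e-07). Klra8, an activating Ly49 receptor, was at 8.09, 5.96 and 5.0 against 4.57, 5.21 and 4.78 (1.5, adjusted p = 0.015), and passed with neither array 2 alone (1.11, adjusted p = 0.272) nor array 3 alone (0.15, adjusted p = 0.854). Array 1 was the highest of the gamma-delta arrays for each of these genes, and its NK cell marker median was the highest as well. NK cells exceeded the gamma-delta mean for 17 of the 21 receptors (38.3% over all genes), for example 12.25 for Klrb1c, 10.86 for Klrb1a and 11.81 for Klra8.

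Of 22 cytotoxic and type 1 effector genes, 5 were higher and none was lower, with a median difference of 0.17; 2 were higher when array 3 of each cell type was compared. The counts were 5 higher and 1 lower with array 2 alone, and 3 higher with array 3 alone. Ifng, the gene of interferon gamma, was at 8.28, 7.93 and 7.85 against 6.91, 6.63 and 6.38 (1.38, SE 0.199, adjusted p = 1.08e-05), and the chemokine gene Ccl5 at 12.75, 13.15 and 12.90 against 11.77, 12.32 and 11.34 (1.12, SE 0.190, adjusted p = 0.000125). Ifng had the order of the NK cell markers among the gamma-delta arrays, and Ccl5 did not. NK cells exceeded the gamma-delta mean for 19 of the 22 genes (38.3% over all genes). Xcl1, another chemokine, was higher by 1.45, and Tbx21 by 1.35. Gzma, a granzyme, was at 9.83, 7.51 and 6.11 against 5.69, 5.73 and 5.84 (2.06, SE 0.439, adjusted p = 0.00178); its level followed the NK cell markers across the gamma-delta arrays, and with array 3 alone its difference was 0.36 (adjusted p = 0.540). Prf1, which encodes perforin, went the other way, at 9.01, 8.20 and 8.60 against 9.39, 9.78 and 9.48; the difference of -0.95 (adjusted p = 0.000927) fell short of the fold limit with all arrays and passed it with array 2 alone (-1.35, adjusted p = 0.00119).

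Among 26 costimulatory and inhibitory receptors, 6 were higher and 1 was lower; 5 were higher with array 2 alone, 4 were higher and 1 lower with array 3 alone, and 3 were higher when array 3 of each cell type was compared. The largest difference was that of Pdcd1, which encodes the inhibitory receptor PD-1. Pdcd1 was at 10.35, 9.97 and 10.05 against 6.89, 6.92 and 6.76 (3.27, SE 0.207, adjusted p = 2.04e-13). Gamma-delta and CD8 arrays were each tightly grouped, the difference was 3.11 with array 2 alone and 3.19 with array 3 alone, and NK cells were at 6.66 and NKT cells at 8.51. Cd160 (2.05), Cd200r1 (1.47), Slamf7 (1.41), the TNF family ligand Tnfsf14 (1.20) and Tnfrsf9, the receptor 4-1BB (1.04), were the other higher genes. Tnfsf8, the ligand of CD30, was lower (-1.33, adjusted p = 0.00101; -0.96 with array 2 alone, adjusted p = 0.330).

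Cytokine receptor genes moved in both directions: 4 of 29 were higher and 3 lower, with 7 higher and 1 lower with array 2 alone, 6 higher and 2 lower with array 3 alone, and 6 higher and 1 lower without gamma-delta array 1. Il2ra, the high-affinity subunit of the IL-2 receptor, was at 9.54, 9.73 and 9.83 against 7.26, 7.14 and 6.57 (2.71, SE 0.225, adjusted p = 1.36e-10). Its gamma-delta mean of 9.70 was below those of regulatory T (12.90), NKT (10.41) and CD4 T cells (10.17), and above that of NK cells (7.10). Il12rb2, a subunit of the IL-12 receptor, was at 8.34, 8.21 and 8.61 against 6.45, 6.79 and 6.34 (1.86, SE 0.252, adjusted p = 3.45e-06). Il6ra, the IL-6 receptor, was at 8.12, 8.95 and 8.94 against 10.72, 10.68 and 10.69 (-2.03, SE 0.237, adjusted p = 2.49e-07). The groups were separate for all 3 receptors. Il6st, the shared signalling chain of that receptor, was also lower with all arrays (-1.05, adjusted p = 0.00324) and passed with neither array 2 nor array 3 alone (adjusted p = 0.323 and 0.219), and the TGF-beta coreceptor Tgfbr3 was lower with all arrays (-1.09) but not with array 2 alone (-0.86, adjusted p = 0.0581), without gamma-delta array 1 or CD8 array 1, or after quantile normalization.

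Chemokine and egress receptors were higher in 4 of 26 cases and lower in none: Ccr4 (1.57), Ccrl2 (1.5), Ccr6 (1.32) and Ccr2 (1.20). With array 2 alone 3 were higher and 1 lower, and with array 3 alone 4 were higher. Of 18 integrin genes 3 were higher and 2 lower (2 and 1 with array 2 alone, 3 and 2 with array 3 alone). Itgb3, the beta chain of the vitronectin receptor, was at 9.72, 9.85 and 10.06 against 7.93, 7.81 and 7.72 (2.06, SE 0.165, adjusted p = 6.75e-11). Itga6, the laminin receptor chain, was at 7.16, 7.57 and 7.60 against 9.27, 9.18 and 9.40 (-1.83, SE 0.267, adjusted p = 1.18e-05). Itgae, which encodes CD103, was lower with all arrays (-1.19, adjusted p = 0.0018), and did not pass with array 2 alone (-0.86, adjusted p = 0.377).

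Genes of naive T cells were lower in part: of 21 measured, 6 were lower and none was higher, with a median difference of -0.78 against 0.10 over all genes. The 6 were Il6ra, Satb1 (-1.26), a chromatin organiser, Igfbp4 (-1.25), the actin crosslinker Actn1 (-1.19), Il6st and the transcription factor Bach2 (-1.03); of these 6, 2 passed with array 2 alone, 4 with array 3 alone and 2 when array 3 of each cell type was compared. Over the whole list, array 2 alone gave 3 lower (Il6ra, Igfbp4 and Ccr7) and 1 higher, the progenitor factor Myb (1.09, adjusted p = 0.0106, against 0.54 with all arrays), and array 3 of each type gave 3 lower. The count of lower genes was 4 after quantile normalization and 8 after median centring. The factor Lef1 was at 10.66, 11.52 and 11.46 against 12.07, 11.95 and 12.03, and the lymph node homing receptor Ccr7 at 11.24, 10.99 and 11.49 against 12.20, 12.16 and 12.04. The groups did not overlap for either, and both differences, -0.81 for Lef1 and -0.89 for Ccr7, had an adjusted p under 0.05 (0.00105 and 0.00196) but fell short of the fold limit. Array 1 was the lowest gamma-delta array for Satb1, Actn1, Bach2, Il6st, Il6ra and Lef1.

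Of 33 activated and memory T cell genes, 10 were higher and 1 was lower, with a median difference of 0.60; 7 were higher with array 2 alone and 9 with array 3 alone. S100a4, a calcium-binding protein, was at 9.22, 8.40 and 8.19 against 6.41, 6.44 and 6.56 (2.13, SE 0.205, adjusted p = 5.15e-09), and S100a6, another, at 9.17, 8.44 and 7.89 against 6.58, 6.32 and 5.83 (2.26, SE 0.286, adjusted p = 1.05e-06). Anxa2, a membrane-binding annexin, was higher by 2.03. The groups did not overlap for any of these 3 genes, and array 1 was their highest array. S100a4 and S100a6 had the order of the NK cell markers among the gamma-delta arrays. NK cells exceeded the gamma-delta mean for 22 of the 33 genes (38.3% over all genes).

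Immediate early genes, which respond within minutes to receptor signals or to handling of the tissue, were higher in 6 of 22 cases and lower in 1 (median 0.28). Jun was at 9.81, 9.48 and 9.49 against 8.04, 8.77 and 7.15 (1.61, SE 0.374, adjusted p = 0.00392), Fos at 7.93, 8.03 and 7.92 against 6.62, 6.88 and 6.43 (1.32, SE 0.309, adjusted p = 0.00408) and Nr4a1, a reporter of receptor signalling, at 9.25, 10.08 and 9.77 against 8.57, 8.58 and 8.02 (1.31, SE 0.275, adjusted p = 0.00152). CD8 array 3, with the digestion wording, was the lowest of all 6 arrays for these 3 genes, and the part of preparation in them was not tested. Jun and Fos passed with neither array 2 nor array 3 alone, Nr4a1 passed with each, and none of the 3 passed when arrays 1 and 2 of each type were compared. With array 2 alone 3 of the 22 were higher, with array 3 alone 2, when arrays 1 and 2 of each type were compared 3, and when array 3 of each type was compared 3. Myc was the lower gene (-1.03, adjusted p = 0.00271; with array 2 alone -1.0, adjusted p = 0.190).

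Cell cycle and interferon response genes gave few calls, as did all genes (1.35% higher and 2.33% lower). In lists of this size, so few calls do not set these genes apart. Of 19 cell cycle genes limma called 0 at baseline, with 2 at an unadjusted p under 0.05 (median difference -0.24), and Racgap1, a cytokinesis gene outside that list, was lower (7.33, 7.21 and 7.29 against 9.14, 9.43 and 9.04, a difference of -1.93). Among 19 interferon response genes only Oas2, an antiviral RNA sensor, was lower (-1.02, adjusted p = 0.000488; with array 3 alone -0.71, adjusted p = 0.110). Of 9 heat shock genes, only the mitochondrial chaperone Hspd1 passed (-1.28), and it passed with neither array alone (adjusted p = 0.301 and 0.196).

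Next to Cd8a and the receptor segments, the genes furthest below their CD8 level came from several functions. Als2cl, a gene related to the guanine nucleotide exchange factor alsin, was at 6.59, 6.69 and 6.49 against 10.23, 9.74 and 9.65 (-3.28, SE 0.240, adjusted p = 7.30e-12). Slc6a19, a neutral amino acid transporter, was at 6.46, 5.96 and 6.24 against 9.33, 8.18 and 9.04 (-2.63, SE 0.225, adjusted p = 2.74e-10), and Inpp4b, a phosphoinositide phosphatase, at 7.75, 8.79 and 7.75 against 10.74, 10.61 and 10.41 (-2.49, SE 0.243, adjusted p = 6.53e-09). By the rule that chose them, all 3 stood apart from the CD8 arrays by at least 1 unit. Als2cl had little spread among the gamma-delta arrays, and Inpp4b had its highest level on array 2. Tdrp (-2.16), the Schlafen family gene Slfn1 (-2.01), Pdk1, a kinase that limits pyruvate oxidation (-1.92), the sialyltransferase St8sia1 (-1.79) and the receptor for vasoactive intestinal peptide Vipr1 (-1.79) were among the 25 largest. The 25 in each direction were chosen with groups at least 1 unit apart, so any lone gamma-delta array met the fold limit by that choice. Dkc1, a pseudouridine synthase, was among the 25 lower genes (-1.92, and -1.32 with array 2 alone).

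Genes of B cells were higher in the gamma-delta arrays and varied widely among them. All 14 measured B cell markers were higher with all arrays and with array 3 alone, 2 with array 2 alone, 9 when the 6 arrays were fitted by themselves and 8 without the CD8 arrays labelled blood. Ms4a1, which encodes CD20, was at 10.71, 8.37 and 11.08 in gamma-delta T cells against 5.30, 5.83 and 5.51 in CD8 T cells (4.5, SE 0.480, adjusted p = 4.47e-08). Cd79a, a signalling chain of the B cell receptor, was at 10.46, 8.39 and 11.09 against 5.86, 5.79 and 5.60 (4.23, SE 0.463, adjusted p = 7.12e-08). Array 2 was lowest for both, and it still lay above every CD8 array; Ms4a1 (2.82) and Cd79a (2.64) were the 2 markers that passed with it alone. Fcer2a, the low-affinity IgE receptor CD23, ranged most among the markers, at 8.22, 6.6 and 10.84 against 5.47, 5.58 and 5.65.

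The median log2 level of the 14 B cell markers was 8.46, 7.04 and 10.16 on the gamma-delta arrays and between 5.72 and 6.04 on the CD8 arrays. Their summed intensity was 9130, 3670 and 18500 on the gamma-delta arrays and 1700 to 1820 on the CD8 arrays. NKT arrays summed to 1800 to 2420 and NK arrays to 1240 to 1320, so the gamma-delta arrays stood above both. In bulk samples such as these, more cells of a type and more RNA per cell cannot be told apart, and no B cell arrays were analysed here to set a reference level. The immunoglobulin kappa segment Igkv10-96 was at 9.34, 7.22 and 12.32 against 5.04, 5.31 and 5.04, and Jchain, the joining chain of secreted antibody, at 5.94, 5.13 and 9.17 against 5.42, 5.20 and 5.53. Scd1, a fatty acid desaturase, kept the same order at 9.23, 7.22 and 11.27 against 5.52, 5.13 and 5.80.

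MHC class II genes moved with the B cell genes in gamma-delta T cells, but also on 1 CD8 array. H2-Aa, the alpha chain of I-A, was at 10.57, 8.52 and 11.83 in gamma-delta and at 6.76, 9.39 and 6.02 in CD8 T cells, so the groups overlapped through CD8 array 2 (2.91, SE 0.663, adjusted p = 0.00324). Cd74, the invariant chain, was at 11.58, 10.24 and 12.81 against 7.89, 10.09 and 7.26. Of 8 such genes 5 were higher with all arrays, 1 when the 6 arrays were fitted by themselves, 7 with array 3 alone and 0 with array 2 alone (limma; 1 of 8 at an unadjusted p under 0.05). The B cell marker median of CD8 array 2 was 6.04, near its fellows, while its MHC class II median was 9.47 against 7.77 and 7.47.

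NK cell markers showed another order. Their median level was 8.49, 7.51 and 6.11 on gamma-delta arrays 1, 2 and 3, against 5.14 to 5.60 on the CD8 arrays, 8.03 to 8.99 on NKT arrays and 11.84 to 12.01 on NK arrays. Of 13 measured, 11 were higher with all arrays, 7 when the 6 arrays were fitted by themselves, 10 with array 2 alone and 8 with array 3 alone. Ncr1, the natural cytotoxicity receptor NKp46, was at 9.94, 7.59 and 5.95 against 4.87, 4.77 and 5.19, with NK cells at 13.42 (2.89, SE 0.455, adjusted p = 4.13e-05). Array 1 was highest and array 3 lowest, but still above the CD8 arrays. Levels of pan T cell markers were near even, with medians of 10.97, 10.73 and 10.79 in gamma-delta and 11.21 to 11.29 in CD8 T cells against 7.98 to 8.66 in NK cells. Markers of macrophages and monocytes were higher in 1 of 12 cases, of dendritic cells in 1 of 10 and of plasma cells in 1 of 7. Summed macrophage and monocyte markers were at 1150 to 2170 on the gamma-delta and 977 to 1130 on the CD8 arrays. The sums were 1310 to 2370 and 982 to 1040 for plasma cell markers, and 1960 to 2790 and 2610 to 3110 for dendritic cell markers. The part of cells other than gamma-delta T cells in the levels of the B, NK and MHC class II genes was not tested.

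**Figure D4:**
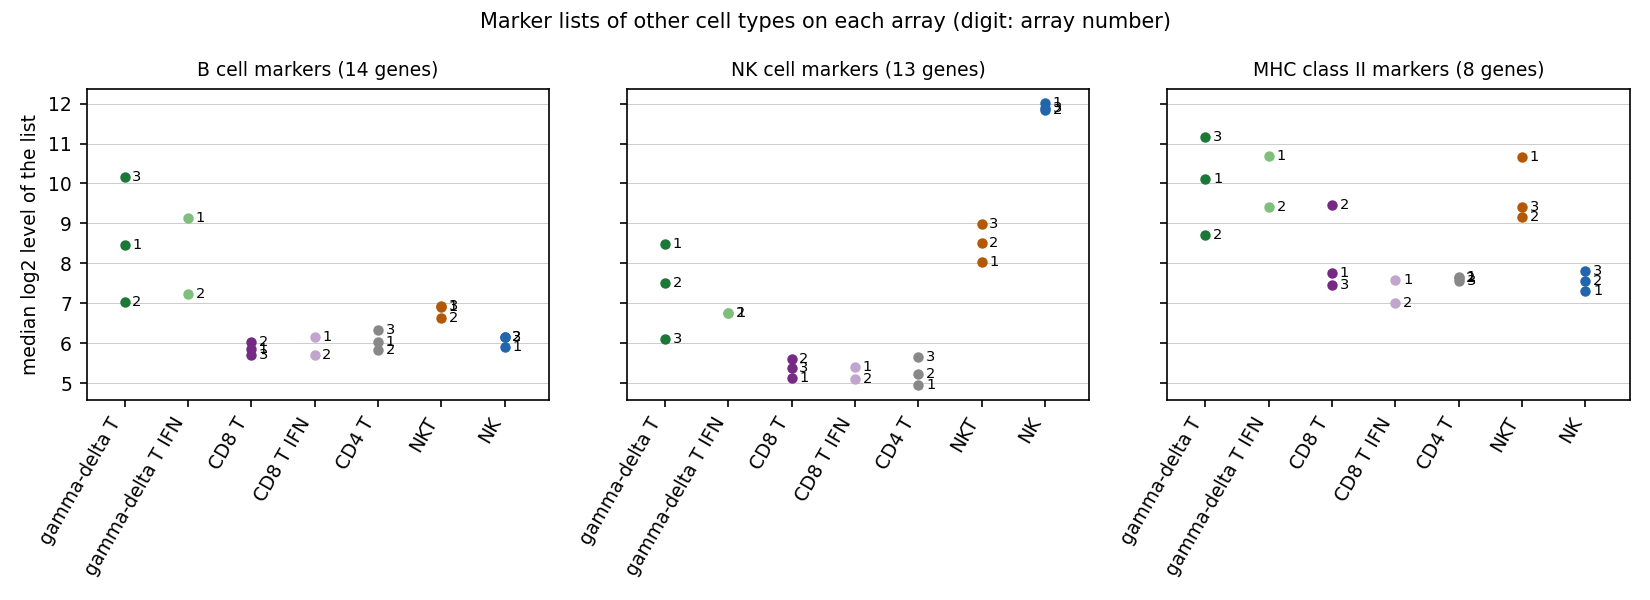
Median log2 level (vertical axis) of the B cell, NK cell and MHC class II marker lists on each array, 1 point per array with its number, for gamma-delta and CD8 T cells at rest and after interferon (IFN) and for CD4 T, NKT and NK cells at rest. B cell markers run from 7.04 to 10.16 on the resting gamma-delta arrays and from 5.72 to 6.04 on the resting CD8 arrays, NK cell markers from 6.11 to 8.49 and from 5.14 to 5.60, and CD8 array 2 stands above the other CD8 arrays for MHC class II.

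Array orders were counted over the called genes. Among the 267 higher genes, 128 ranged over at least 1 unit among the gamma-delta arrays, and 71 of these (55.5%) had the order of the B cell markers, array 3 above 1 above 2; over all 2010 genes with such a range the share was 9.0%. With members of the B cell, NK cell, MHC class II and plasma cell marker lists left out, it was 52 of 100 (52%). Among the 461 lower genes, 216 had such a range, and 185 of these (85.6%) had array 2 above 3 above 1, that is, their lowest level on array 1; over all genes with that range the share was 33.9%. Tbrg3, for example, was at 4.62, 8.33 and 8.01 in gamma-delta against 9.02, 8.92 and 8.78 in CD8 T cells. All called genes share the arrays that set these orders.

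The same comparison on the separate interferon arrays, 2 against 2, gave 206 higher genes (1.04%) and 174 lower genes (0.881%). Of the 267 higher at baseline, 134 were called the same way (50.2% of the baseline calls and 65% of the interferon calls), 264 had the same sign and 244 had every gamma-delta array above every CD8 array (31.8% of all genes did). Of the 461 lower at baseline, 88 were called the same way (19.1% and 50.6%), 456 had the same sign and 295 had every gamma-delta array below every CD8 array (19.5% of all genes did). No gene was called in opposite directions. The lower count on the interferon arrays was 405 without gamma-delta array 1, 57 without gamma-delta array 2 and 71 without CD8 array 2, and the higher count was 119 without CD8 array 2.

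On the interferon arrays the difference was 5.58 for Trdv2-2, 5.62 for Trgv1, -4.60 for Cd8a and -3.18 for Cd8b1. Of the IL-17 programme 11 of 22 genes were higher, with Il23r at 3.10, Tmem176b at 2.71, Maf at 2.57 and 5830411N06Rik at 1.21. Pdcd1 differed by 2.59, Klri1 by 4.04 and Klrc1 by 3.10. Klrb1a (0.89, adjusted p = 0.173), Klra8 (-0.17, adjusted p = 0.866) and Ifi214, an interferon-inducible gene (-1.07, adjusted p = 0.142, against -2.49 at baseline), did not pass there. B cell markers were higher again, 12 of 14, with medians of 9.13 and 7.23 on the 2 gamma-delta interferon arrays, and NK cell markers in 3 of 13 cases, with medians of 6.77 and 6.77. The change of the gap between the cell types with interferon was tested for every gene as the interaction of cell type and treatment: limma called 0 of 19752 genes, with 834 at an unadjusted p under 0.05 and a smallest adjusted p of 0.481.

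**Figure D5:**
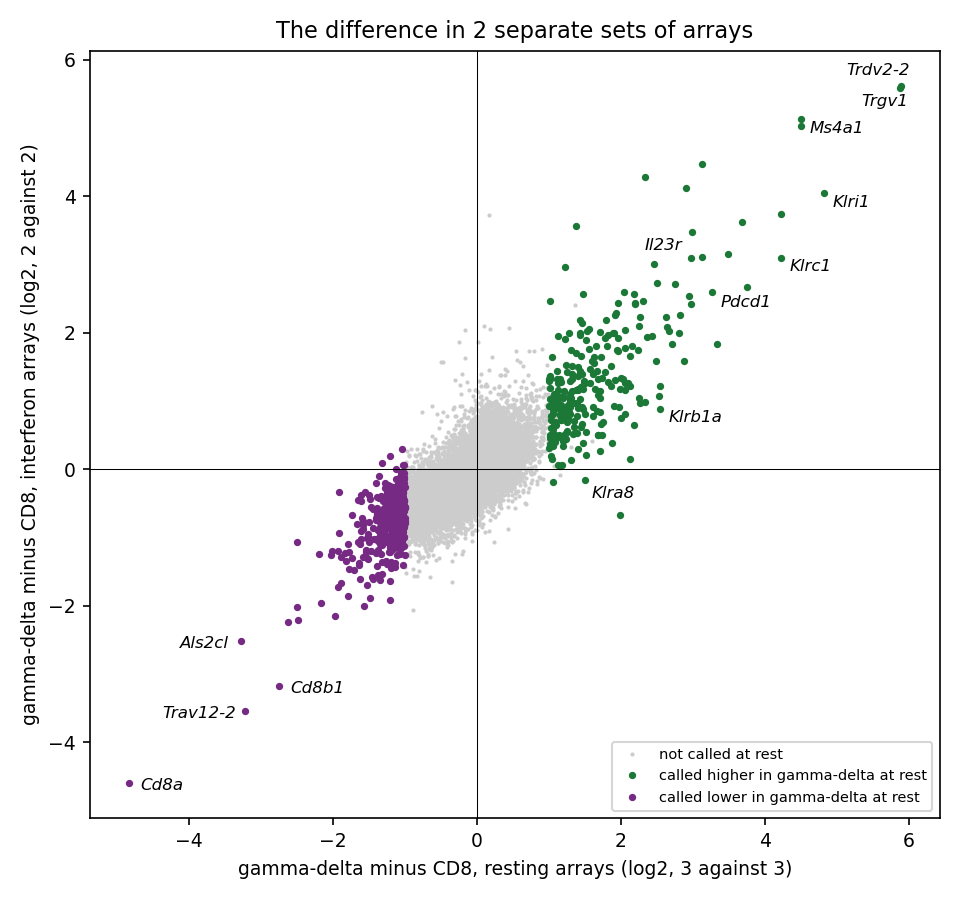
Gamma-delta minus CD8 difference (log2) on the baseline arrays (horizontal axis) against that on the separate interferon arrays (vertical axis), 1 point per gene; genes called at rest are coloured and all others grey. Of the 267 green points (called higher), 264 lie above 0 on the vertical axis, and of the 461 purple points (called lower), 456 lie below 0.

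Gamma-delta T cells were also set against the unweighted mean of 5 other lymphocyte types at baseline (CD8, CD4 and regulatory T cells, NK and NKT cells), a comparison that shares its gamma-delta and CD8 arrays with the one above. It gave 115 higher genes (0.582%) and 69 lower genes (0.349%), and the lower count was 342 without gamma-delta array 2 and 144 without gamma-delta array 3. Among these called genes only, every gamma-delta array was above every array of the 5 types for 38 and below for 2. The difference from the 5 types was 5.68 for Trdv2-2, 4.02 for Trgv1, 2.89 for Il23r, 2.54 for Blk, 2.20 for Pdcd1 and 1.16 for Sox13, but 0.67 for Zbtb16 and 0.07 for Maf, whose levels in NKT cells were above those in gamma-delta T cells. It was 0.86 for Klrb1c and 0.15 for Ncr1, while the B cell genes Ms4a1 (4.18) and Cd79a (3.63) kept large differences. The 2 called genes below every array of the 5 types were Crybg1, a beta-gamma crystallin domain gene (-1.63), and Pik3cb, the beta catalytic subunit of PI3 kinase (-1.10).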

How the data were processed

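RNA from sorted cells was extracted with TriZol and amplified with the Ambion WT Expression Kit, per the labels. The deposited values are intensities per probe set on a linear scale; Affymetrix Power Tools and RMA appear in the submitters' processing notes, without versions. RMA, as usually run, equalises the probe distributions of arrays before it summarises probes, which can hide a shift of all genes; whether it was run so is not stated in what was used here. Of 24922 probe sets, 21425 had 1 gene symbol, 1399 several and 2098 none; the brightest probe set stood for each of 19752 genes, 921 of which had more than 1. Values were taken to log2, and all 43 arrays in 18 groups were fitted with limma 3.58.1 (R 4.3.3; lmFit, eBayes), with Benjamini-Hochberg adjustment over all genes of a contrast; a call needed an adjusted p under 0.05 and a difference of at least 1. SE is that of limma. The fit was tested on simulated data. Precision is limited by how few arrays each group has.

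Genes named by size were the 25 largest differences in each direction among called genes whose groups lay at least 1 apart. They also had to keep their call with a preparation term. That term was balanced over the cell types at baseline, so it could not move the difference between them. All 267 higher and 461 lower calls were kept with it, so it removed no gene. Other named genes are members of gene and marker lists or the 10 largest differences from 5 types. The rest are the 15 with the widest range among the gamma-delta arrays. Predicted models and clones were not named. The comparison and lists were chosen with earlier results of these data known, so they are a description. Promoter windows came from RefSeq (GRCm38.p6). Alternatives changed the arrays used, the scaling, the filter, the probe set rule, the moderation and the fold limit.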

Additional observations from a re-analysis of the deposited data

How the results depend on the processing

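None of the 728 baseline calls was called in the opposite direction under the alternatives run, and the cause of the changes in number was not tested. At baseline 267 genes were higher and 461 lower in gamma-delta than in CD8 T cells. With no fold limit they were 1428 and 2187. The lower count was 277 with quantile normalization, 962 with median centring, 228 with array weights, 177 with array 3 of each type only and 156 without the CD8 arrays labelled blood. Leaving out each array in turn gave 232 to 322 higher and 188 to 981 lower. With array 2 as the lone gamma-delta array they were 149 and 82, and with CD8 array 2 out as well 145 and 74. On the interferon arrays the higher count (206) was 125 with median centring, 442 with no fold limit and 119 to 244 with an array left out; the lower count (174) was 304, 425 and 57 to 405. Genes whose gap changed with interferon (0) numbered 1 without the CD8 arrays labelled blood, 1 with array weights, 0 to 3 with an array left out, 1 and 4 with gamma-delta array 2 or 3 alone, and 3 with CD8 array 2 out as well. Against the mean of 5 types the higher count (115) was 1239 with no fold limit, 63 and 177 with gamma-delta array 2 or 3 alone, 62 with CD8 array 2 out as well and 102 to 158 with an array left out; the lower count (69) was 1949 with no fold limit, 40 with gamma-delta array 2 alone, 37 with CD8 array 2 out as well, 152 with array 3 of each type only, 129 with arrays 1 and 2 only, 135 with median centring and 50 to 342 with an array left out.

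Deviations of same-numbered gamma-delta and CD8 arrays had correlations of 0.015, -0.141 and 0.099. Such values cannot show whether these arrays shared an animal, which the labels do not state. With the replicate number as a block the counts were 269 and 461 at baseline and 209 and 176 with interferon. They were 0 for the interaction, and 115 and 69 against the 5 types. The block is balanced over the 2 cell types at baseline, so it could not move their difference. Of the 50 genes named by size, Igkv4-91, Trav7d-4, Il6ra, Trav19 and Fam241a lost their call with array 3 of each type only, Igkv10-96, Scd1, Igkv9-120, Igkv4-91, Cd22 and Dkc1 with gamma-delta array 2 alone, Igkv10-96, Igkv9-120 and Igkv4-91 without the CD8 arrays labelled blood, Igkv9-120 with arrays 1 and 2 only and Igkv4-91 without gamma-delta array 3. Over the alternatives and the 415 genes named by size, named against the 5 types or listed, 345 values lost a call and 164 gained one. The other 9028 kept their side, which includes genes called in neither setting, so they do not measure how stable the calls were.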
